A study of Mus musculus with 6 samples.

Results

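The clustered protocadherins of the mouse lie in 3 tandem arrays, alpha, beta and gamma, on chromosome 18. They were taken here as all protein-coding genes of the GENCODE mouse annotation on that chromosome whose symbol starts with Pcdha, Pcdhb or Pcdhg, which gave 57 of 21938 protein-coding genes, 14 in alpha, 22 in beta and 21 in gamma. Neural stem cells (NSCs) grown from the embryonic mouse cerebral cortex had been profiled by ChIP-seq, the sequencing of immunoprecipitated chromatin, for H3K9me3, histone H3 trimethylated at lysine 9. All cells were transduced with lentivirus, which carried a scrambled shRNA in the controls (shCTR, 2 ChIP libraries) and an shRNA against the histone demethylase PHF8 in the knockdown (shPHF8, 2 ChIP libraries). One input per condition was not analysed here. No source says that replicates came from separate cultures, so p-values measure the spread between these libraries, which may be technical. PHF8 transcript was not analysed here, and the labels give no genotype beyond control and PHF8 knockdown.

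Clustered protocadherins are cadherin-like adhesion proteins of the neuronal surface that bind homophilically, and the combination of isoforms a neuron displays lets its own branches recognise and avoid each other. Each alpha and gamma gene starts with a large variable exon that has a promoter of its own and codes for the extracellular part, and that exon is spliced to constant exons shared by the whole array. Beta genes are single exons without constant exons. Most isoforms are chosen stochastically, promoter by promoter, with CTCF and cohesin looping promoters to distant enhancers, whereas the C-type members at the ends of alpha and gamma (Pcdhac1, Pcdhac2, Pcdhgc3, Pcdhgc4 and Pcdhgc5) are known for broader expression. H3K9me3 is a mark of repressed chromatin, laid down among others by SETDB1 and SUV39H enzymes and bound by HP1 proteins.

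The deposited lists hold the positions of broad peaks, islands of neighbouring enriched windows, with no height, score or p-value. The measurement is therefore the number of bases of a feature that lie under a peak, and a change in read density inside a peak is not seen. Each list held between 44316 and 55555 peaks on chromosomes 1 to 19, X and Y. Where 2 values are given for a condition, replicate 1 comes first. Peaks covered 5.75 and 5.86% of those chromosomes in shCTR and 8.04 and 7.23% in shPHF8. The ratio of mean covered length, shPHF8 over shCTR, was 1.32 over the whole genome, and ratios within the protocadherin locus are read beside it. The shPHF8 replicate 1 list stood apart in peak width, with a median of 4200 bp against 2400 to 2800 bp in the others. Since 2 libraries against 2 give an exact two-sided permutation p of at least 0.333, no difference between conditions can pass 0.05.

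The locus was far richer in H3K9me3 peaks than its chromosome. From the first alpha exon to the last gamma exon (GRCm38, chromosome 18, 36930285 to 37841873, 912 kb), 34.3 and 32.7% of bases were under peaks in shCTR, and 43.5 and 39.3% in shPHF8. All of chromosome 18 was covered at 6.52 and 6.63%, and at 8.93 and 7.93%, in the same libraries. The 3 arrays were marked unequally. From first to last variable exon, peaks covered 23.9% ± 5.69 (SD, n = 4 libraries) of alpha, 35.2% ± 8.36 of beta and 81.7% ± 2.28 of gamma. The map of peaks along the locus shows mostly separate peaks on alpha exons, a mixture on beta, and a nearly unbroken block over gamma.

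**Figure D1:**
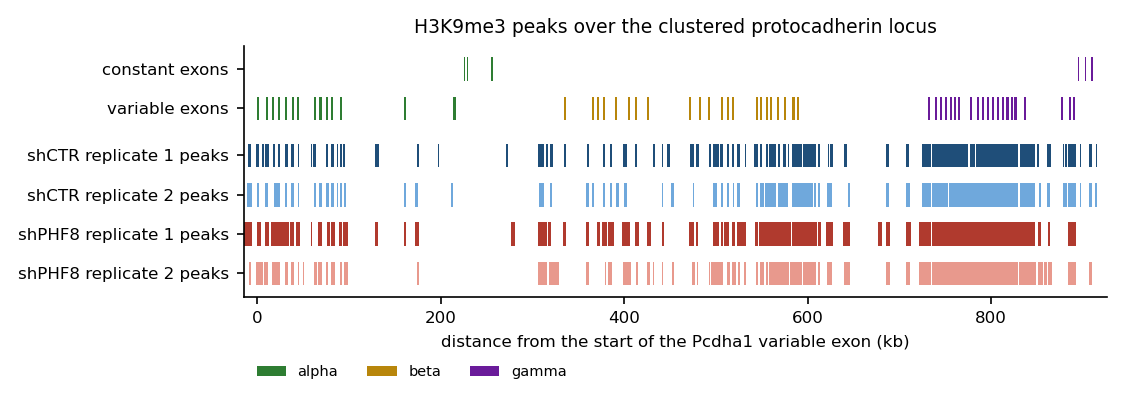
Peaks of the 4 H3K9me3 libraries (lower 4 rows) along the locus, in kb from the start of the Pcdha1 variable exon, with variable and constant exons of the 3 arrays drawn above to scale. Peaks are mostly separate over alpha, absent around the 3 alpha constant exons in each library, and nearly continuous over the gamma variable exons.

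Within the arrays, peaks lay on the variable exons more than between them. The variable exon was taken as the longest coding exon of each gene, from 2316 to 2562 bp. Gamma variable exons were covered at 95.7% ± 0.565 (SD, n = 4), alpha at 78.7% ± 7.39 and beta at 62.5% ± 10.1. The gaps between neighbouring variable exons were covered at 75.2% ± 3.40 in gamma, 28.1% ± 8.06 in beta and 13.9% ± 6.09 in alpha. Alpha thus lay above beta on exons and below it in gaps, but the gap value of alpha rests on the 2 long gaps beside Pcdhac1. Without them alpha gaps were covered at 18.1 and 12.0% in shCTR and 43.2 and 27.3% in shPHF8, under beta gaps in 3 of the 4 libraries by a mean of 2.97 points over all 4 (exact sign-flip permutation p = 0.50), a choice made after the values were seen. The median gap was covered at 25.4% in alpha and 25.6% in beta.

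In each of the 4 libraries exons were covered more than gaps, by a mean of 64.8 percentage points in alpha, 34.4 in beta and 20.5 in gamma. Gamma exons exceeded beta exons by 36.0 and 44.1 points in the shCTR libraries, by 18.8 and 33.7 in the shPHF8 libraries, and exceeded alpha exons by 11.8 to 28.3 points. Gamma gaps exceeded alpha gaps by 50.0 to 66.9 points. Alpha exons exceeded beta exons by 7.01 to 29.6 points, while alpha gaps, with the 2 long ones included, lay 11.3 to 18.7 points under beta gaps. These differences had 1 sign in all 4 libraries, which gives an exact two-sided sign-flip permutation p of 0.125, the smallest that 4 libraries allow (Benjamini-Hochberg adjusted p = 0.135 over 14 such comparisons). They therefore stayed short of the 0.05 threshold by design.

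**Figure D2:**
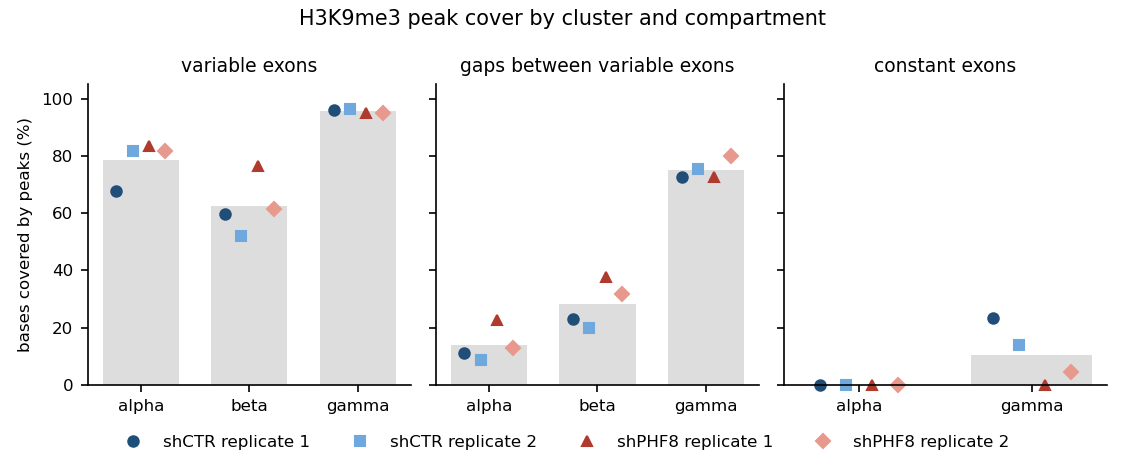
Percent of bases under H3K9me3 peaks (y axis, from 0) in variable exons, gaps between variable exons and constant exons of each cluster. Points are the 4 libraries and grey bars their mean. Gamma is highest on exons and in gaps, alpha exons lie far above alpha gaps, and alpha constant exons are at 0 in each library.

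Constant exons, which every alpha or gamma transcript includes, had no covered base in alpha and were covered at most in part in gamma. The 3 alpha constant exons (2860 bp) had 0 covered bases in each of the 4 libraries, and so did the introns before and between them (38267 bp). In gamma, the first and second constant exons were also at 0 in each library. The third gamma constant exon, in which the gamma genes of the annotation end, had 498 and 298 covered bases in shCTR against 0 and 98 in shPHF8. That is 23.5 and 14.1% of the 3 gamma constant exons in shCTR and 0 and 4.62% in shPHF8, and the conditions did not overlap (ratio 0.123, exact permutation p = 0.333). The ratio was 0.246 without shPHF8 replicate 1 and 0 without shPHF8 replicate 2. Gamma introns before and between constant exons were covered at 28.2 and 32.7% in shCTR and 6.05 and 18.0% in shPHF8.

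The gamma cluster carried the mark as a domain. Of its 21 variable exons, 20 were covered over their whole length in all 4 libraries, including all 18 that are not C-type. The widest single gamma peak was 46.4 kb in shCTR replicate 1 and held 9 variable exons, 75.6 kb in shCTR replicate 2 with 13, 94 kb in shPHF8 replicate 1 with 16 and 93.6 kb in shPHF8 replicate 2 with 16. Joined over the 4 libraries, 1 region of 113 kb (37666001 to 37779000) ran from Pcdhga2 to Pcdhga12 over 17 variable exons. The polymorphic pseudogene Pcdhgb8, no member of the 57, lies inside it and its 2421 bp coding exon was also fully covered in each library. That exon counts here as part of the gap from Pcdhga11 to Pcdhga12. Pcdhga1, the first gamma gene (exon 37661945 to 37664374), had a region of its own of 13.8 kb and all 2430 bases of its exon covered in the 4 libraries, as had Pcdhga2 all 2421 bases. Of the 20 gamma gaps, 13 were fully covered in all 4 libraries.

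Coverage broke off beyond Pcdhga12, where the C-type genes begin. The gap from Pcdhga12 to Pcdhgc3, the longest in gamma (38007 bp), was covered over 15460 and 15060 bases in shCTR, against 16060 and 23060 in shPHF8. The gamma gap with the next most covered bases, Pcdhga5 to Pcdhga6 (10304 bp), had 8304 in shCTR replicate 1 and was fully covered in the other 3 libraries. Pcdhgc3 (exon 37806548 to 37808977, 2430 bp) was the exception among gamma exons. Peaks covered 377 and 577 of its bases in shCTR and 0 in both shPHF8 libraries. In shCTR these bases were the left edge of peaks that lay mostly past the exon, in a region of 4.40 kb where neither shPHF8 library had a peak. Next to it, the gap from Pcdhgc3 to Pcdhgc4 had 4555 and 5555 covered bases of 6555 in shCTR, and 732 and 1132 in shPHF8, again without overlap.

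Pcdhgc4 and Pcdhgc5 lay under 1 peak in each library. All 2451 and all 2460 bases of their exons were covered in the 4 libraries, and the peak ended between 866 and 1266 bp past the Pcdhgc5 exon, short of the first constant exon, which starts 2886 bp past it. So of the gamma C-type exons 2 were fully covered in both conditions. The Pcdhgc3 exon was covered at 15.5 and 23.7% in shCTR and had no covered base in shPHF8.

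**Figure D3:**
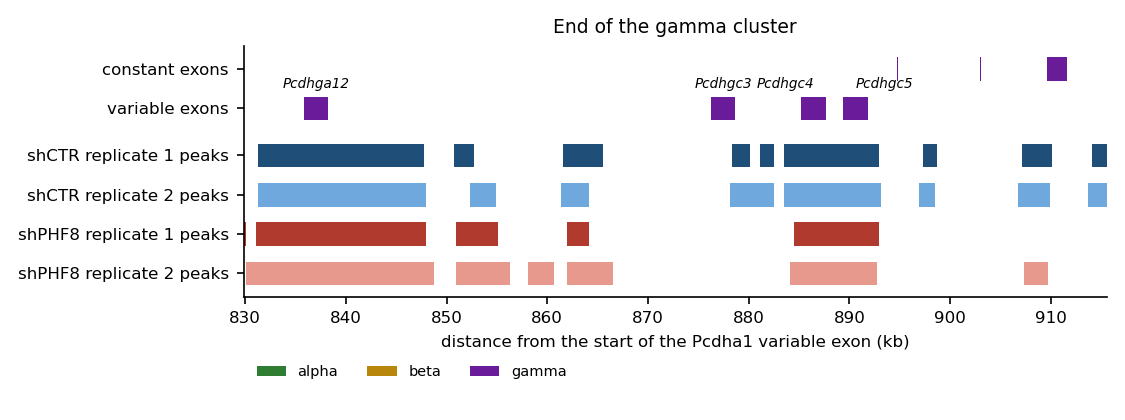
The end of the gamma array from Pcdhga12 to the constant exons, in kb from the start of the Pcdha1 variable exon, with peaks of the 4 libraries below. Both shCTR libraries have peaks just right of Pcdhgc3 and between the first 2 constant exons that neither shPHF8 library has, whereas the peak over Pcdhgc4 and Pcdhgc5 is present in all 4.

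In the alpha cluster most exons lay under a peak of their own. In each shCTR library, 11 of the 14 variable exons were the sole variable exon under their peak, and in shPHF8 9 and 10 were. At most 1 variable exon lay under any alpha peak in shCTR replicate 1, 2 in shCTR replicate 2 and shPHF8 replicate 2, and 3 in shPHF8 replicate 1, where the widest alpha peak was 19.6 kb. The peaks over a sole exon had a median width of 3200 and 2400 bp in shCTR, and 4200 and 3000 bp in shPHF8, and their centres lay at a median of between 53 bp left and 142 bp right of the exon's centre. At 2 kb upstream of the exon start, the share of alpha genes under a peak was 0 and 14.3% in shCTR, 21.4 and 7.14% in shPHF8. At 2 kb inside, it was 78.6 and 92.9%, and 85.7% in both shPHF8 libraries.

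**Figure D4:**
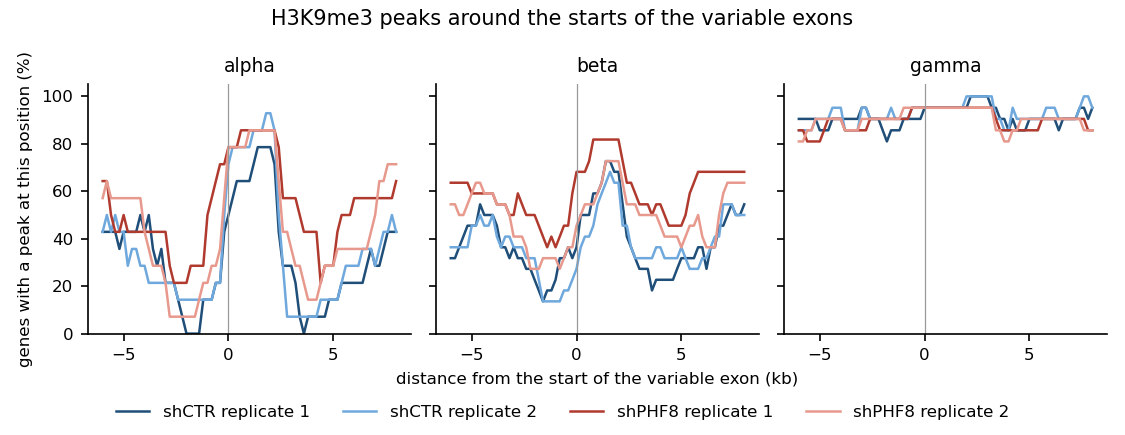
Share of genes of each cluster with a peak at each position from 6 kb upstream to 8 kb downstream of the start of the variable exon (x axis in kb, 200 bp steps, 1 line per library). Alpha shows a steep rise at the exon start and a fall past its end, beta a lower and broader rise, and gamma stays above 80% throughout.

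Of the alpha exons, 9 were at least 50% covered in all 4 libraries and 3 fully covered, Pcdha2, Pcdha5 and Pcdha11. Pcdha1, the first gene of the locus (exon 36930285 to 36932672, 2388 bp), had 2316 and 2116 covered bases in shCTR and 2388 in both shPHF8 libraries. Pcdha2 and Pcdha5 had every base (2388 and 2346) covered in each library. At the other end stood the C-type genes. Pcdhac1 (exon 37090136 to 37092571) had 0 covered bases in shCTR replicate 1, all 2436 in shCTR replicate 2 and shPHF8 replicate 1, and 0 in shPHF8 replicate 2, so each condition held 1 library with and 1 without the peak. Pcdhac2 (exon 37143969 to 37146530, 2562 bp) had 0 covered bases in each library and was the only member of the 57 without a peak on its variable exon in any of the 4. Pcdha8 and Pcdha9 each lacked a peak in 1 library, Pcdha8 in shPHF8 replicate 1 and Pcdha9 in shCTR replicate 1. The 2 alpha gaps with the most covered bases were Pcdha12 to Pcdhac1 (67512 bp, 8.02% covered on average), with 5800 and 2335 bases in shCTR against 9112 and 4400 in shPHF8, and Pcdhac1 to Pcdhac2 (51397 bp, 7.52%), with 3000 and 5829 against 4629 and 2000.

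The beta cluster changed along its length. A division at its midpoint by gene order was made after the values were seen. Of the first 11 genes, Pcdhb1 to Pcdhb11, 0 were at least 50% covered in all 4 libraries and 1, Pcdhb4, had a peak in all 4, and of the last 11, Pcdhb12 to Pcdhb22, all 11 were at least 50% covered in all 4. The first 11 exons were covered at 32.8 and 20.3% in shCTR and 57.3 and 30.9% in shPHF8, and the last 11 at 87.2 and 84.4%, and 95.7 and 92.4%. Pcdhb1 (exon 37264998 to 37267451, 2454 bp) had 2200 and 1000 covered bases in shCTR and 2203 and 0 in shPHF8. Pcdhb10 was the least covered beta exon on average, with 328 bases in shCTR replicate 1 and 0 in the other 3 libraries, followed by Pcdhb5, with 1144 bases in shCTR replicate 2 alone.

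At the 3' end of beta, peaks joined over the 4 libraries made a region of 62.4 kb (37477801 to 37540200) that held the 7 exons from Pcdhb16 to Pcdhb22 and ran on past the last gene. Single libraries were less continuous, with at most 2 beta exons under 1 peak in each library except shPHF8 replicate 1, which had 5. Pcdhb18, Pcdhb21 and Pcdhb22 (exon 37518481 to 37520862) were fully covered in all 4 libraries, with 2376, 2322 and 2382 bases. The beta gaps with the most covered bases were Pcdhb11 to Pcdhb12, with 7993 and 4802 bases in shCTR, against 6400 and 10202 in shPHF8, and Pcdhb14 to Pcdhb15, with 5716 and 2600, and 10086 and 5686. Of 21 beta gaps 2 were at least 50% covered in all 4 libraries, against 18 of 20 in gamma and 0 of 13 in alpha.

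**Figure D5:**
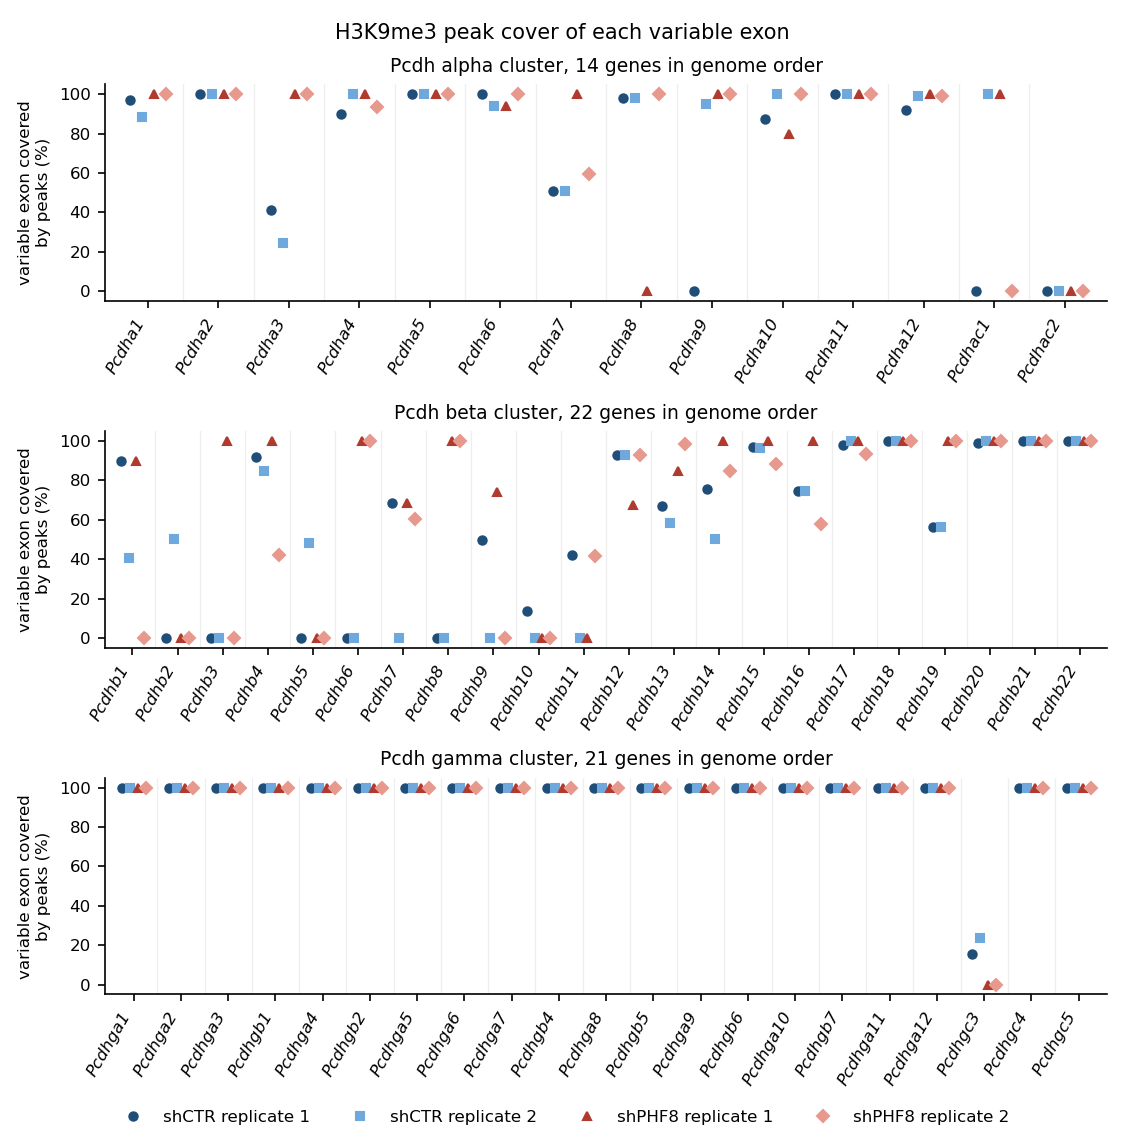
Percent of each variable exon under H3K9me3 peaks (y axis) for the 57 genes in genome order, 1 panel per cluster and 1 marker per library. Apart from Pcdhgc3, gamma exons are at 100% in each library, Pcdhac2 is at 0%, and the libraries disagree most in the first 11 beta genes.

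Taking the members as a whole, 40 of the 57 variable exons (70.2%) were at least 50% covered in all 4 libraries, 9 in alpha, 11 in beta and 20 in gamma. Among the longest coding exons of all 21853 protein-coding genes that have one, 6.43% were, and among the 722 of these exons with at least 2000 bp, 23.1% were. Neighbouring members share peaks and are not independent, so no test was run over them. At 26 members (3 alpha, 3 beta and 20 gamma) the exon was covered completely in all 4 libraries, so no gain of covered bases could be seen there.

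In all, 9 members had more covered bases in both shPHF8 libraries than in both shCTR libraries, 4 in alpha (Pcdha1, Pcdha3, Pcdha7 and Pcdha9), 5 in beta (Pcdhb6, Pcdhb8, Pcdhb13, Pcdhb14 and Pcdhb19) and 0 in gamma. That is 16.1% of the 56 members with a peak, against 9.91% of all longest coding exons with a peak and 21.3% of those of at least 2000 bp. Pcdhgc3 alone (1 member) had fewer in both shPHF8 libraries, against 6.19% of all such exons and 6.27% of the long ones. The other 47 overlapped between conditions or were tied. Leaving out shPHF8 replicate 2 gave 16 members with more, joining peaks within 5 kb gave 3, and the count with fewer was 3 to 6 with any 1 library left out. With a library left out fewer values have to be separated, so these counts could only stay or rise. The median difference, shPHF8 minus shCTR mean, was 0 bp over the 56 members with a peak and 0 bp over all 3633 longest coding exons with one. With the exons already full in both shCTR libraries set aside, 9 of 30 members (30%) had more in shPHF8, and 27.9% of the long exons treated in the same way did, a share near the background.

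Pcdhb8 (exon 37355271 to 37357607) differed most. It had 0 covered bases in both shCTR libraries and all 2337 in both shPHF8 libraries, and it lay in the only region of the locus, 4.40 kb, with a peak in both shPHF8 and in neither shCTR library. Pcdhb6 (exon 37334028 to 37336343) had 0 in both shCTR and all 2316 in both shPHF8 libraries, though the region around it held shCTR peaks beside the exon. Pcdha3 (exon 36946207 to 36948576) had 976 and 576 covered bases in shCTR and all 2370 in both shPHF8 libraries. Pcdhb19 had 1356 covered bases in both shCTR and 2403 in both shPHF8 libraries. At Pcdha9 the 2 controls lay far apart, with 0 and 2360 bases, beside 2481 in both shPHF8 libraries. At each of these loci the p of the exact permutation test cannot fall below 0.333.

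By cluster, exon coverage in shPHF8 and shCTR overlapped in alpha (67.7 and 81.8% in shCTR, 83.5 and 81.8% in shPHF8, ratio 1.11, exact permutation p = 0.667). It was higher in both shPHF8 libraries in beta (59.9 and 52.2%, and 76.5 and 61.6%, ratio 1.23, p = 0.333 by the exact test). In gamma it was lower by the bases of Pcdhgc3 (96.0 and 96.4%, and 95.2% in both, ratio 0.990, exact p = 0.333). Gaps were covered more in both shPHF8 libraries in alpha, at 11.1 and 8.64% against 22.6 and 13.0% (ratio 1.80), and in beta, at 23.1 and 20.0% against 37.6 and 31.7% (ratio 1.61). Gamma gaps overlapped, at 72.8 and 75.4% against 72.6 and 79.9% (ratio 1.03). The stretches between arrays were also covered more in shPHF8, with a ratio of 1.79 from alpha to beta and 1.33 from beta to gamma, and the whole locus had a ratio of 1.24, under the 1.32 of the genome. After each library was scaled to an equal total of covered bases, the beta exon ratio turned to 0.932, and it was 0.938 when only the widest peaks were kept until every library covered as much as the smallest, so its direction changed in both settings, which remove the difference in covered length between libraries. Alpha exons, whose conditions overlapped, also went below 1, to 0.843 and 0.847 in the same settings, and gamma gaps to 0.787 in the first (1.02 in the second). The alpha and beta gap ratios stayed above 1 in both settings, and were 1.12 and 1.19 with peaks within 5 kb joined.

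Of the 53 gaps with a peak, 10 (18.9%) had more covered bases in both shPHF8 libraries, 1 in alpha, 7 in beta and 2 in gamma, and 1, Pcdhgc3 to Pcdhgc4, had fewer. Among 5 kb tiles of the genome with a peak, 21.1% had more and 7.14% fewer. Gaps differ from tiles in length, and 14 gaps were fully covered in all 4 libraries, so no gain could be seen there. Of the 62 regions made by joining the peaks of the 4 libraries along the locus, 35 held a peak of each library, 1 a peak of both shPHF8 libraries only and 3 a peak of both shCTR libraries only. The 3 were the region beside Pcdhgc3, 1 between gamma constant exons and 1 of 1 kb between Pcdha11 and Pcdha12. No genome-wide share of such regions is given here, so whether these counts are unusual cannot be told.

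The variable exons shared sequence features that set them apart from their gaps, described here without a test. Their GC content was 53.7% in alpha, 51.3% in beta and 52.7% in gamma, against 37.8, 37.7 and 40.8% in the gaps. The observed over expected CpG ratio was 0.642, 0.420 and 0.558 on exons and 0.208, 0.186 and 0.257 in gaps. Soft-masked bases, which mark repeats, made up 1.73, 4.74 and 1.93% of exons and 51.7, 46.6 and 29.0% of gaps. The alpha constant exons, without a peak, had a GC content of 42.2% and the gamma ones of 53.7%.

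Some stretches of these exons recur in the genome, which bears on where a read of 50 bases can be placed. Of all 50-base windows within the variable exons, 7.89% occurred exactly elsewhere in the genome, and 23.3% did so with up to 2 mismatches. Exact recurrence was 14.3% on alpha exons, 7.38% on beta and 4.19% on gamma exons. In the gaps it was 21.1% in alpha, 14.0% in beta and 3.85% in gamma, and its part in the contrast of exons with gaps was not tested. With up to 2 mismatches the share was 29.0% in alpha, 29.2% in beta and 13.5% in gamma, and it was highest at Pcdha7, at 59.3%. The 5 C-type exons had no recurring window, and 2 of them were fully covered in all 4 libraries and 1 was never covered. Of 12 gamma exons with under 10% recurring windows, 11 were fully covered in all 4 libraries, as were all 9 gamma exons with 10% or more. In alpha, 9 of 12 exons with 10% or more were at least 50% covered in all 4 libraries, and 0 of 2 below 10%. In beta, 11 of 21 exons with 10% or more were, and 0 of 1 below 10%. At the 9 members with more covered bases in shPHF8 the share ranged from 18.8 to 59.3%. How reads with several placements were treated is not given in the sources used here, and their part in the beta and alpha values was not tested.

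Against other protocadherins, the clustered genes were covered more. Unclustered protocadherins are encoded by single genes elsewhere and likewise have a large coding exon. Over 12 of them, peaks covered 53.3 and 65.2% of the longest coding exons in shCTR and 37.4 and 36.1% in shPHF8, and over the 57 clustered genes 75.2 and 75.9%, and 85.1 and 79.0%. The clustered genes exceeded them in each library, by 10.7 to 47.8 points (mean 30.8, exact sign-flip permutation p = 0.125). For all 57 the difference was 16.3 points on average in shCTR and 45.4 in shPHF8 (exact permutation p = 0.333). Beta exons alone, at 59.9 and 52.2% in shCTR, lay above the unclustered genes in replicate 1 and below them in replicate 2. In shPHF8 beta exons lay above them in both libraries, at 76.5 and 61.6%. Pcdh10, an adhesion gene of the delta group, had 2688 and 2540 covered bases in shCTR and 0 in both shPHF8 libraries. Pcdh18 had 1423 in both shCTR libraries and 0 in both shPHF8 libraries on that exon. Pcdh17 was covered over 2559, 2559, 2453 and 2559 bases, while Pcdh11x, Pcdh12 and Pcdh15 had 0 on it in each library. Pcdh7, Pcdh9 and Pcdh17 were the 3 unclustered genes at least 50% covered in all 4 libraries. Pcdh1 and Pcdh8 had a peak on the exon in each library, Pcdh19 in 3, and Pcdh20 in shCTR replicate 2 alone. Zfp genes, zinc finger genes that often lie in tandem arrays and are known for H3K9me3, were covered at 44.5 to 50.6% over 394 genes, under the clustered protocadherins in each library by 29.2 to 34.5 points (exact sign-flip permutation p = 0.125).

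Genes beside the arrays differed from each other. Taf7 and Slc25a2 are single-exon genes between beta and gamma that code for a TFIID subunit and a mitochondrial carrier. Slc25a2 had 1369 and 1145 of 1369 bases covered in shCTR and all in both shPHF8 libraries, so the conditions overlapped. Taf7 had 910 and 1110 bases covered in shCTR and 2910 and 1310 in shPHF8. Diaph1, a formin gene past the gamma constant exons, had 1600 and 2200 covered bases in shCTR and 0 in both shPHF8 libraries. Zmat2, ahead of the alpha array, had 0 in each library.

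A list of 42 other genes of protocadherin control and signalling was counted over their gene bodies. Of these, 18 (Stag1, Setdb1, Atf7ip, Cbx5, Smchd1, Lrif1, Tet1, Tet3, Adam10, Psen2, Ptk2, Ptk2b, Fyn, Ret, Rock1, Cyfip2, Wasf1 and Dab1) had a peak in all 4 libraries, against 29.4% of all gene bodies, and 29 had one in any library. In both shPHF8 libraries 7 had more covered bases and 8 fewer, where 27.6% of all gene bodies with a peak had more and 12.9% fewer. These backgrounds were not matched for gene length, and the list holds long genes such as Dab1 (1125 kb) and Stag1 (362 kb). Whether the counts of the list are unusual therefore cannot be told. Among the regulators, Ctcf and Rad21, whose products loop the promoters, had 0 covered bases in each library. Smchd1, which codes for a silencing factor of the protocadherin locus, had 9800 and 9400 covered bases in shCTR and 5000 and 7000 in shPHF8. Lrif1, which codes for a partner of SMCHD1, had 21377 and 15200 in shCTR and 35377 and 26377 in shPHF8. Setdb1 had 600 and 1200 covered bases in shCTR and 1400 in both shPHF8 libraries, and Atf7ip, whose product is its cofactor, 61600 and 66462 in shCTR and 64662 and 53862 in shPHF8. Ptk2b, a kinase that gamma and alpha protocadherins inhibit, had 3800 and 8600 in shCTR and 22344 and 16800 in shPHF8. Fyn, a kinase that alpha protocadherins are known to bind, had 35600 and 54000 covered bases in shCTR and 18800 and 28400 in shPHF8.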

How the data were processed

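The authors aligned single-end reads of 50 bases to mm10, by the methods with SOAPaligner/SOAP2, whereas the submitters' processing notes name Bowtie2 2.3.5.1, SAMtools 1.9 and deepTools. Broad peaks were called with SICER2, and 1 list per ChIP library was deposited. Window, gap, false discovery rate, use of the input and the handling of reads with several placements are not given in the sources used here. Methods and labels differ in how many cells went into a ChIP. The deposited lists hold positions only, and no counting interval was given. Read counts per library are in the study's appendix, lowest for shPHF8 replicate 2, and were not used here.

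Starts in the lists are 0-based and ends inclusive, and positions are printed 1-based. Features came from GENCODE M21 on GRCm38, the assembly also called mm10. GENCODE gives 2 genes the symbol Pcdha11, and the first was named Pcdha10 after RefSeq's symbol at the same coding start. Pcdhgb3 was not analysed here. Constant exons are exons shared by more than 50% of an array's members, and gaps lie between the variable exons of neighbouring members. Clusters were compared within libraries by exact sign-flip permutation tests and conditions by exact permutation tests, all two-sided. A member, gap or gene has more or fewer covered bases in shPHF8 when both its shPHF8 values lie above or below both shCTR values. Covered bases were computed in Python 3.11.15 with numpy 2.4.6 and matched bedtools 2.31.1 on simulated peaks at each of 2400 features. There 400 of 400 changed features were recovered with 0 false calls. Simulated features were built to be separate or to overlap between conditions, so this checks the code only. It does not measure how often real libraries differ by chance. Sequence features came from GRCm38.p6, with windows of 50 bases searched on both strands of chromosomes 1 to 19, X and Y.

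Given by library or as fully covered or uncovered were the C-type members, the first and last of each cluster, the 2 most and 2 least covered of each cluster, the 3 with the largest difference in either direction among those that did not overlap between conditions, the 2 gaps of each cluster with the most covered bases, and 4 neighbouring genes. Unclustered protocadherins and listed genes with a peak in all 4 libraries were named, some of them with values. The members and lists were chosen with earlier results of these data known. Sequences are not reported here.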

Additional observations from a re-analysis of the deposited data

How the results depend on the processing

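Over 15 results and 138 values under alternatives, 115 stayed within 1.5 times for a count or within the spread between replicates for a ratio or percent. Of the 78 values that did not come from leaving out a library, 60 did. Taking the first coding exon returned the main value of every result it was applied to, so those values could not show a change. Members at least 50% covered in all 4 libraries numbered 29 to 42 across all alternatives, with 41 whichever library was left out. Leaving out a library relaxes this count and those of members with more or fewer covered bases, so they could only stay or rise. Members with more covered bases in shPHF8 (9) numbered 3 with peaks within 5 kb joined, all among the 9, and 10 to 16 with 1 library left out, the 16 without shPHF8 replicate 2. The 1 member with fewer, Pcdhgc3, was the only one with peaks joined as well, while the count was 0 with peaks of at least 2000 bp, 3 with the widest peaks up to the least covered length, 0 for 1 kb on each side of the exon start, and 3 to 6 with 1 library left out (3 with either shCTR library left out, 6 without the first and 4 without the second shPHF8 library). With the replicate block, both same-numbered differences in 1 direction, 9 and 1 members were counted as without it. Same-numbered libraries did not deviate together over 30 kb bins (correlation -0.0256). With 2 libraries per condition this cannot exclude that same-numbered libraries were prepared together.

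Ratios of shPHF8 to shCTR under the widest peaks up to the least covered length were 0.847 on alpha exons, 0.938 on beta exons (reversed) and 1.34 in beta gaps. Scaled to the same total they were 0.843, 0.932 (reversed) and 1.22, and 0.755 on gamma exons and 0.787 in gamma gaps. Alpha exons and gamma gaps, whose conditions overlap, thus also turned below 1, gamma gaps also with peaks joined (0.990). Both settings remove the difference in covered length by construction. Other moves were 1.19 for beta gaps with peaks joined and 0.994 for gamma exons with peaks of at least 2000 bp. Alpha gaps with peaks joined, at 1.12, stayed within their wide spread between replicates (0.754). With 1 library left out the ratios ranged from 1.01 to 1.22 on alpha exons, 1.10 to 1.36 on beta exons, 1.32 to 2.28 in alpha gaps, 1.47 to 1.75 in beta gaps, 0.980 to 1.08 in gamma gaps, 0.988 to 0.992 on gamma exons and 0 to 0.246 on gamma constant exons. Mean exon coverage was 69.0% in alpha with the widest peaks, and for 1 kb on each side of the exon start 57.4% in alpha, 44.0% in beta and 94.4% in gamma. With 1 library left out it was 77.1 to 82.4%, 57.9 to 66.0% and 95.5 to 95.8%. Added after seeing the data, the gap difference of gamma over alpha ranged from 54.3 to 65.1 points and the excess over unclustered protocadherins from 25.2 to 38.3 points, and alpha gaps lay 2.97 points under beta gaps on average with the gaps beside C-type genes left out, above them in shPHF8 replicate 1. The alternative that ranks peaks by score was not run, because the lists hold none. For the remaining changes the cause was not tested. Without heights or reads the lists limit each result to called peaks.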
